A study of Mus musculus with 2 samples.

Results

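The genes that decide whether a cell leaves the G1 phase and starts to copy its DNA were measured in 2 cell samples sorted from the spleens of mice with a liver cancer, hepatocellular carcinoma. The 10 genes encode 3 cyclins of the D type (Ccnd1, Ccnd2, Ccnd3), both cyclins of the E type (Ccne1, Ccne2), the kinases that these cyclins activate (Cdk4, Cdk6, Cdk2) and the kinase inhibitors p27 (Cdkn1b) and p18 (Cdkn2c). They were taken by symbol from the annotation of the array, which gave them 27 of the 34945 probe sets with a single gene symbol, and they are 10 of the 18193 genes that those probe sets stand for. The mice were of the C57BL/6 background, and all of them carried the tumour, so no tumour-free animal was compared. One sample, called CD45-negative here, was sorted for the red cell marker Ter119 and against CD45, the surface marker of white cells. The other, called CD45-positive, held cells with CD45 from the same animals and was the study's control. The labels do not give the age or number of the mice, how the tumours arose, whether RNA was pooled, or whether Ter119 took part in the CD45-positive gate. Each sample was hybridised to 1 Affymetrix 3′ expression array, so there was no replicate and no difference between the samples could be set against a spread between replicates.

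In G1, D-type cyclins bind Cdk4 or Cdk6 and begin to phosphorylate the retinoblastoma protein, which frees E2F transcription factors. E-type cyclins then activate Cdk2, which completes that phosphorylation and opens S phase. The INK4 inhibitors, p18 among them, bind Cdk4 and Cdk6, while p27 acts mainly on cyclin E with Cdk2. Red cell precursors divide a few times while they make haemoglobin and then leave the cell cycle; cyclin D3 is known to affect the number of those divisions, and p27 and p18 are known to build up as the precursors mature. Cyclin D2 is a D-type cyclin of activated B cells, and Cdk6 is a prominent partner of D-type cyclins in lymphoid and early blood cells.

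Promoter sequences are shown for a pair of kinases, Cdk2 and Cdk4, whose differences between the arrays ran in opposite directions, and for Ccne1, which had one of the largest differences. They come from RefSeq, which in the table used held 9 promoters for 7 of the 10 genes. Each runs from 250 bases before to 50 bases after a transcription start of GRCm38.p6, read 5′ to 3′ on the strand of the gene. Capitals mark exact matches on either strand to 3 kinds of short motif. They are TTTCCCGC, bound by E2F factors, CACGTG, the E-box of Myc and related factors, and GGGCGG, the GC box of Sp factors. The Ccne1 promoter lies at chr7:38107441-38107740 (minus strand), the Cdk2 promoter at chr10:128705002-128705301 (minus strand) and the Cdk4 promoter at chr10:127063285-127063584 (plus strand).
Ccne1: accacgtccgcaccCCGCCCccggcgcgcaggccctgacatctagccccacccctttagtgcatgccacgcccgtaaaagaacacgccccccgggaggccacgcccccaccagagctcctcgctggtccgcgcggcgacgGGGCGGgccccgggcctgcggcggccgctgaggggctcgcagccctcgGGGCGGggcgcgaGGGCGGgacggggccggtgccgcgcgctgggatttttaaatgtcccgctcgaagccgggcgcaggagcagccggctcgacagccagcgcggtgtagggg
Cdk2: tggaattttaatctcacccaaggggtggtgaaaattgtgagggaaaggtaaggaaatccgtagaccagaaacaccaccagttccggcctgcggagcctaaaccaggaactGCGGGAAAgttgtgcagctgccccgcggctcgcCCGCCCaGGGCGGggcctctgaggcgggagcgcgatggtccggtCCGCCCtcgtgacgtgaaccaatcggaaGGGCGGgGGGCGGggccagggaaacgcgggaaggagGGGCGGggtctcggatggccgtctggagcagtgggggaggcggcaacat
Cdk4: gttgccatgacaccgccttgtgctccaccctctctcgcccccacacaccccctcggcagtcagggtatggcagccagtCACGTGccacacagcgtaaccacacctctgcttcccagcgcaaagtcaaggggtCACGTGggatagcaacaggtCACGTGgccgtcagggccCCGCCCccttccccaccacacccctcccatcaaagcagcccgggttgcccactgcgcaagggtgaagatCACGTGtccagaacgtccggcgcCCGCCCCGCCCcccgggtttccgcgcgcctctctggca

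The Cdk2 promoter held 1 TTTCCCGC, on the reverse strand, with its first printed base at -140 from the start. Any of the E2F motifs TTTCCCGC, TTTGGCGC and TTTCGCGC was present in 1.84% of all 32851 promoters in the table, and in none of the other 8 promoters of these genes. The Cdk4 promoter held 4 copies of CACGTG, beginning at -172, -118, -98 and -11, and 7.15% of all promoters held that motif at least 1 time. Cdk6 and the inner of the starts listed for Cdkn2c had 1 copy each. GC boxes numbered 4 in the Ccne1 promoter, 6 in that of Cdk2 and 3 in that of Cdk4, where a pair of them shares 1 base, and 35.7% of all promoters held a GC box. The GATA motif AGATAA, present in 11.2% of all promoters, was in none of the 9. A match describes letters only, and no binding was measured.

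The arrays gave 1 deposited intensity per probe set, on a linear scale. A value counted as above the detection level when it passed 101.1. Smell and pheromone receptor genes were taken as silent in spleen, and 95% of the values of their 80 probe sets lay under that level. Where a gene had several probe sets, it was represented by the probe set whose log2 intensity, averaged over both arrays, was highest. Each difference is on the log2 scale, the CD45-negative value minus the CD45-positive value, and a difference of 2, or 4-fold, was the threshold for a count. Values at or under the level were raised to it, so that such differences are lower bounds. A fold printed as at least is more cautious where the CD45-negative value lay under 127. That value was then set to 127, the receptor percentile of the CD45-negative array alone. Probe sets have their own brightness, so intensities are compared between arrays and not between genes.

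The arrays matched their labels. Ptprc, the gene of CD45, stood at 422.7 among the CD45-negative cells and at 32147 among the CD45-positive cells; this was the basis of the sort and is no finding. All 8 red cell markers on the array were at least 4-fold higher in the CD45-negative array (median difference 5.78, summed intensity 395058 against 11524), and so were all 6 platelet markers (median 4.57). All 6 B cell, 7 T cell and 6 macrophage markers and 5 of 7 neutrophil markers were at least 4-fold lower, with medians from -4.24 to -5.69, although Pax5 passed 4-fold only against the common level. None of these markers was at 0 in either array. The summed intensity of the B cell markers was 1926 in the CD45-negative array against 99821, and that of the neutrophil markers 4067 against 128983. All 6 proliferation markers, such as Mki67 (54290 against 2199), were at least 4-fold higher in the CD45-negative array, with a median of 4.17. The median of the receptor probe sets was 33.6 against 17.5, so background differed between the arrays.

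The G1 genes were not shifted as a block. All 10 were above the detection level in both arrays by the probe set that stood for them. In the CD45-negative array 3 were at least 4-fold higher, namely both E-type cyclins and the p18 gene, where 8.31% of the 11793 genes above the level in at least 1 array were. Only Ccnd2 was at least 4-fold lower, 1 of 10, where 16.8% of all those genes were. At a 2-fold threshold 6 were higher (16.8% of all genes) and 3 lower (33.3% of all genes), and Ccnd1 was in neither class. The median difference of the 10 genes was 1.66, against -0.26 over all 11793 genes. It turned to -0.21 when all probe sets of a gene were averaged, since Ccnd3 and Cdk2 were then no longer brighter in the CD45-negative array. These shares describe 2 arrays and carry no test. Since each sample is a mixture of cells, more cells of a type and more RNA per cell cannot be told apart.

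**Figure D1:**
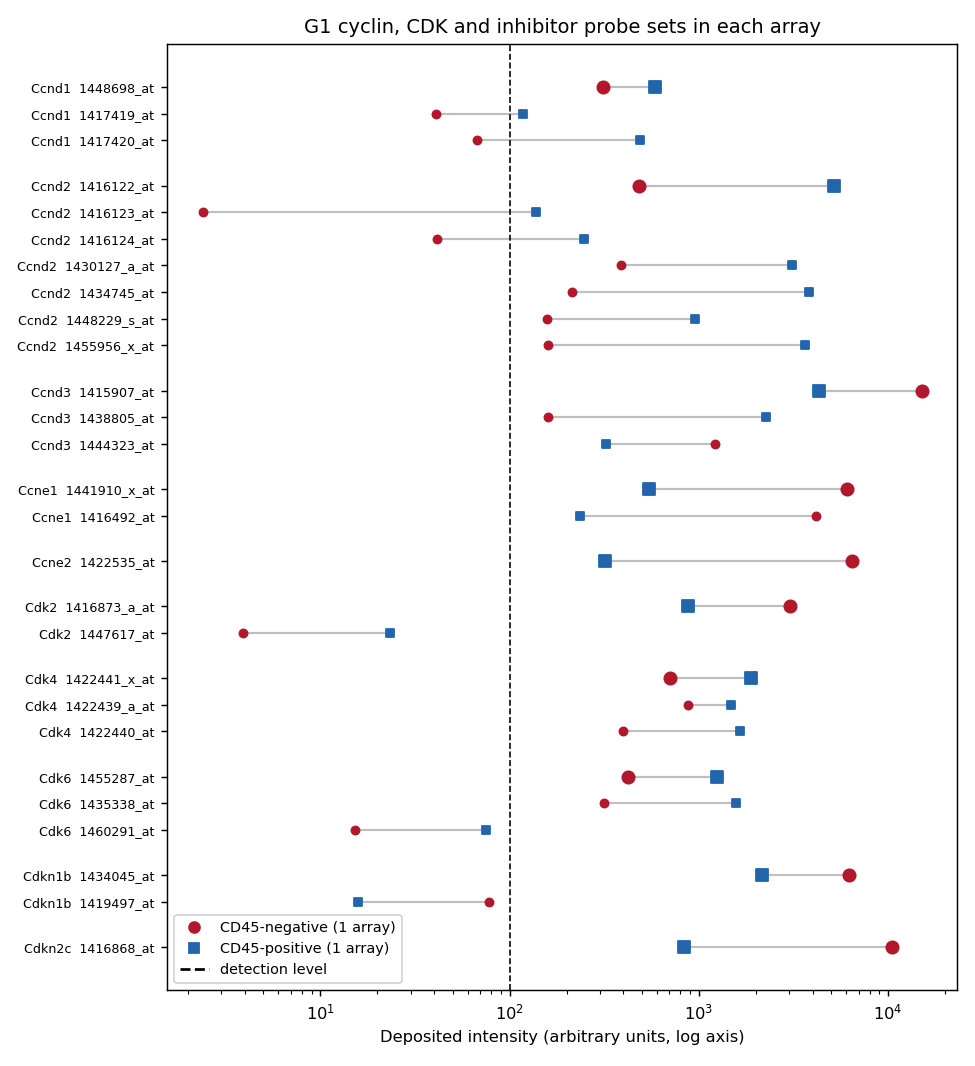
Deposited intensity (log axis, arbitrary units) of the 27 probe sets of the 10 genes in the CD45-negative array (circles) and the CD45-positive array (squares), 1 array each; large symbols mark the probe set that stands for a gene, and the dashed line is the detection level of 101.1. For Ccne1, Ccne2 and Cdkn2c the circle lies far to the right of the square, for all 7 probe sets of Ccnd2 it lies to the left, and 1 probe set of Ccnd3 runs against the other two.

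The D-type cyclins differed from each other in direction. Ccnd2 was 10.8-fold lower in the CD45-negative array, at 481.1 against 5198. All 7 of its probe sets were dimmer there. Of these, the 5 above the level in both arrays gave differences between -2.61 and -4.53, and the latter value came from 158.9 against 3661. The remaining pair was under the level in the CD45-negative array, at 2.4 against 137.7 and at 41.6 against 247.4, and gives bounds only. Among all genes above the level, 5.81% had a lower difference than Ccnd2. The summed B cell, T cell, neutrophil and macrophage markers were all far lower in the same array. The part of each in the Ccnd2 difference was not tested.

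Ccnd3 had no settled direction. The probe set that stood for it, 1415907_at, was at 15018 in the CD45-negative array against 4293, a 3.50-fold excess and a log2 difference of 1.81. A further probe set agreed in direction, at 1221 against 321.6, or 1.93. The remaining probe set, 1438805_at, was at 160.1 against 2257.5, a difference of -3.82. All of these probe sets were above the level in both arrays, and their differences had an SD of 3.28 and a mean of -0.03 on the log2 scale. Over the 5474 genes with several probe sets above the level, the pooled SD was 0.83. That spread is a measure of probe sets, not of replicates. The parts of the Ccnd3 transcript that each probe set reads were not analysed here.

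Ccnd1, the D-type cyclin of many non-blood tissues, was dim in both arrays. Its brightest probe set stood at 312.3 against 585.8, 1.88-fold lower. Its other probe sets were under the level in the CD45-negative array, at 41.0 against 118.1 and at 67.2 against 486.8. All 3 thus lay lower in the CD45-negative array, and by the brightest the gene was short of 2-fold.

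The kinase partners of D-type cyclins were lower in the CD45-negative array, and neither reached 4-fold by the probe set that stood for it. Cdk4 was at 706.8 against 1879, 2.66-fold lower, by 1422441_x_at, whose suffix marks probes that can match other transcripts. Its other probe sets, 1422439_a_at and 1422440_at, read 871.5 against 1484 and 396.4 against 1648.5. The differences of the 3 were -1.41, -0.77 and -2.06. Only 1422440_at has no suffix, and its difference was past 4-fold. Cdk6 was at 421.8 against 1249, 2.96-fold lower. A second Cdk6 probe set gave 316.0 against 1580, a difference of -2.32, and the last passed the level in neither array, at 15.3 and 75.5. Every probe set of both kinases that was above the level was dimmer in the CD45-negative array. The 4-fold threshold fell between the probe sets of each gene.

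The E-type cyclins had large differences in the other direction. By its only probe set, Ccne2 was at 6447 against 320.4, 20.1-fold higher. Of all genes above the level, 98.1% had a lower difference. Ccne1 was at 6079 against 545.3, 11.1-fold higher, by 1441910_x_at, whose suffix marks probes that can match other transcripts. The second probe set, 1416492_at, has no such suffix and gave 4181 against 234.4, or 17.8-fold. Both readings of Ccne1 were thus past 4-fold, and the reading without the suffix was the larger.

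Cdk2, the partner of the E-type cyclins, was also brighter in the CD45-negative array, but by less. It was at 3032 against 877.6, 3.45-fold higher, a difference of 1.79. Its other probe set passed the level in neither array, at 3.9 and 23.5, and has no direction. Cdk2 thus rests on 1 probe set, and the mean of both would give -0.40. The Cdk4 and Cdk6 probe sets above the level and this Cdk2 probe set lay on opposite sides of 0.

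Both inhibitor genes were brighter in the CD45-negative array. Cdkn2c was at 10446 against 837.5, 12.5-fold higher by its only probe set, and 96.9% of all genes had a lower difference. Cdkn1b was at 6200.5 against 2158, 2.87-fold higher. The second Cdkn1b probe set passed the level in neither array, at 77.9 and 15.8. Ordered by difference, the inhibitor genes did not fall together: Cdkn2c lay between Ccne1 and Ccne2, and Cdkn1b lay lowest of the 6 genes that were brighter. Differences of Ccnd3, Cdk2 and Cdkn1b, from 1.81 to 1.52, lay closer to each other than the pooled spread of probe sets. So did those of Ccne1 and Cdkn2c, and those of Cdkn2c and Ccne2, so the order within these groups is not settled.

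**Figure D2:**
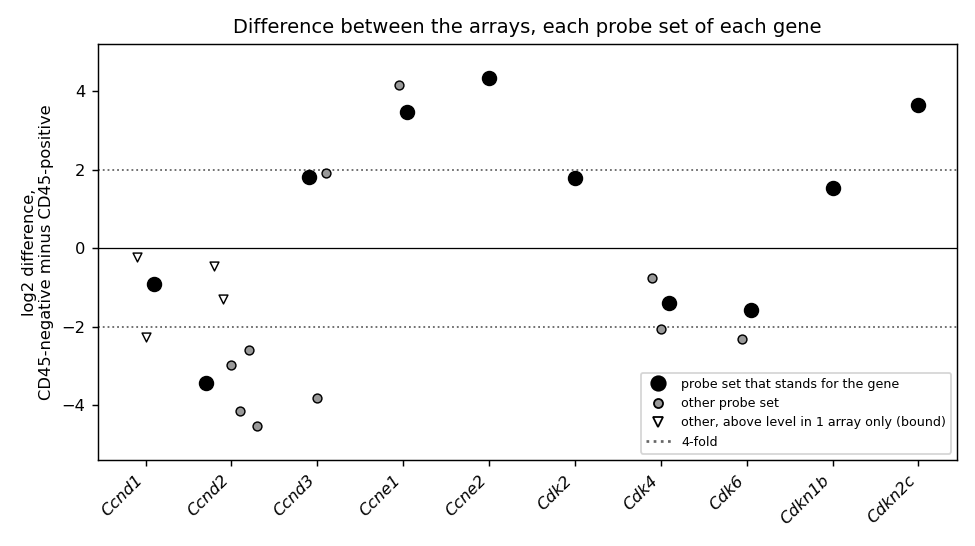
Log2 difference, CD45-negative minus CD45-positive, of each of the 24 probe sets above the detection level in at least 1 array, by gene; large black points stand for the gene, grey points are further probe sets, and triangles are bounds because the CD45-negative value was under the level. Dotted lines mark 4-fold. The probe sets of Ccnd3 lie at 1.81, 1.93 and -3.82, while the points of every other gene with several lie on 1 side of 0.

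Of the 27 probe sets, 24 were above the level in at least 1 array and 20 in both. Among the 24, 8 were brighter and 16 dimmer in the CD45-negative array, and Ccnd2 supplied 7 of the dimmer ones. The share over all probe sets was not computed. By gene, 33.3% of all those above the level were at least 2-fold lower and 16.8% at least 2-fold higher. Probe sets of a gene read the same transcript and are not replicates. Of the 6 genes with several probe sets above the level, 5 had all of them in the same direction, and Ccnd3 did not. The share of such genes among all 5474 with several was not computed.

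**Figure D3:**
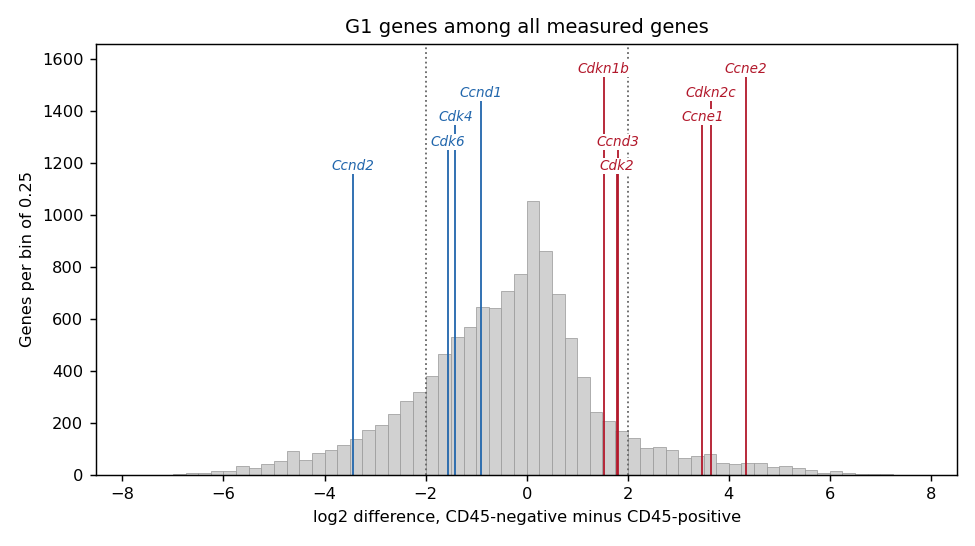
Histogram of the log2 difference, CD45-negative minus CD45-positive, of the 11793 genes above the detection level in at least 1 array, in bins of 0.25, with a labelled line for each of the 10 genes and dotted lines at 4-fold. Ccne1, Cdkn2c and Ccne2 lie in the right tail and Ccnd2 in the left, and the remaining 6 lie inside the 4-fold lines.

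The other CDK inhibitors were a list of 6 genes, of which 4 were above the level in at least 1 array. Past 4-fold were 2, both brighter in the CD45-negative array, where 8.31% of all genes above the level were at least 4-fold higher. The median of the 4 was 2.23. Cdkn3, a phosphatase that acts on CDKs, was at 12354 against 576.7, 21.4-fold higher. Cdkn2d, which encodes the INK4 protein p19, was at 21840 against 3937.5, 5.55-fold higher. The rest are named to complete the families, after their values were seen. Cdkn1a, the p53 target p21, was just short of the threshold at 1197.5 against 301.9, or 3.97-fold. Its other probe set above the level gave a difference of only 0.18. Under both other scalings of the arrays Cdkn1a was past 4-fold, at 2.03 and 2.46 on the log2 scale. Cdkn2a was at 115.6 against 4.0, and the CD45-negative value lay under 127, the receptor percentile of that array alone, so no difference is secure. Cdkn2b and Cdkn1c were under the level in both arrays. The INK4 genes above that percentile, Cdkn2c and Cdkn2d, were thus both past 4-fold in the same direction. After quantile normalization of the arrays Cdkn2d was just short of 4-fold, at 1.97 on the log2 scale, and Cdkn2c was at 3.66.

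The cyclins and kinases that act after the G1 switch had larger differences than most of the G1 genes. On the array were 5 of them, and 4 were past 4-fold towards the CD45-negative cells (median 4.76, 0 towards the CD45-positive cells). Of all genes above the level, 8.31% were at least 4-fold higher. Ccna2, the cyclin A of S phase, was at 27919 against 944.9, 29.5-fold higher, and Ccnf, an F-box cyclin, at 5684 against 184.5, 30.8-fold. The remaining gene, Ccna1, was under 127 in the CD45-negative array. Its value there was 109.9. By the probe sets that stood for them, the 5 phosphatases and kinases that switch CDKs on or off were all brighter in the CD45-negative array. Of these, 3 were past 4-fold, against the same 8.31% of all genes, with a median of 2.09. Averaged over probe sets 2 were, with a median of 1.03. Cdc25c was at least 38.6-fold higher (3906 against 73.5) and Cdc25b 12.7-fold. Without the probe sets that carry an _a_at, _s_at or _x_at suffix, Cdc25b and Cdc25c had no value.

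Genes that act on the G1 kinases themselves lay on both sides of 0. The CDK-activating kinase, which phosphorylates all of these CDKs, had 0 of 3 subunits past 4-fold in either direction and a median of -1.22. Of all genes above the level, 25.1% were past 4-fold in either direction, so a count of 0 of 3 says little. Its cyclin Ccnh was at 1198 against 3346 and its assembly factor Mnat1 at 227.3 against 529.2. Among 8 genes listed with the ubiquitin ligases that remove p27 and cyclin E, the median was 0.39. Past 4-fold were 3 (8.31% of all genes above the level were at least 4-fold higher), all brighter among the CD45-negative cells. They were Cks1b (24006 against 2691.5), its relative Cks2 (27796 against 3594.5) and Skp2 (1358 against 277.5). Cks1b encodes the adaptor that lets the ligase see phosphorylated p27. Skp2 encodes the receptor itself and was named after its value was seen. In the CD45-negative array, the p27 gene, Cks1b and Skp2 were thus brighter, but Cks1b and Skp2 are named here because of their large differences. The other genes of that list lay between -0.74 and 0.68 on the log2 scale, on both sides of 0. Of 5 genes of cyclin D turnover, only the F-box gene Fbxo4 passed 4-fold, at least 8.14-fold lower (45.4 against 1036), and Fbxo31 was 2.16-fold lower. At least 4-fold lower were 16.8% of all genes above the level. Averaged over probe sets, Fbxo4 passed the level in neither array.

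The substrates and effectors of the G1 kinases were mostly brighter in the CD45-negative array. Of the 3 pocket proteins, Rb1 was at 16499 against 2487, 6.63-fold higher, and Rbl2, the p130 protein of resting cells, was at 300.7 against 1751, 5.82-fold lower. Averaged over probe sets Rb1 was short of 4-fold, at 1.82 on the log2 scale, while Rbl2 was at -2.58; without suffixed probe sets Rbl2 had no value. E2F and DP genes numbered 10, of which 7 were past 4-fold, all of them brighter (median 2.74), where 8.31% of all genes above the level were. The largest differences were those of Tfdp2, a partner that E2F proteins need to bind DNA, at 26963 against 733.5, and of the repressor E2f8, at 14249 against 387.8. These lists were written with earlier results of these arrays known, and their counts are descriptions.

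**Figure D4:**
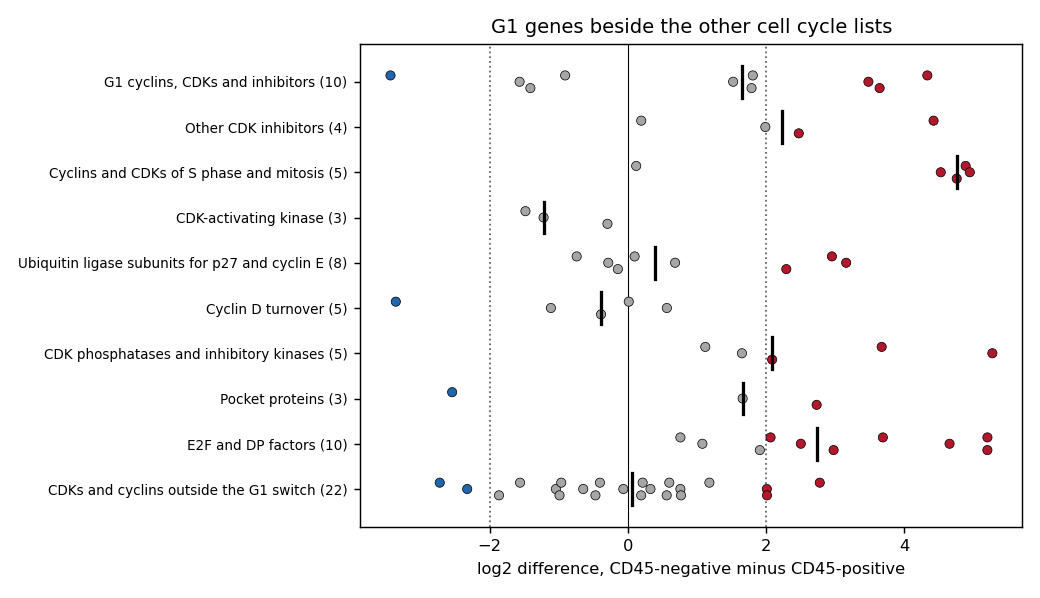
Log2 difference, CD45-negative minus CD45-positive, of each gene above the detection level in at least 1 array, for the 10 G1 genes and 9 other cell cycle lists, with the number of genes in brackets; red points are at least 4-fold higher, blue points at least 4-fold lower, black bars are medians and dotted lines mark 4-fold. The G1 genes run from -3.43 to 4.33, and the S phase and mitosis list has its median at 4.76.

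The proliferation markers had a summed intensity of 229174 in the CD45-negative array against 25527.5. The E-type cyclins, both inhibitor genes and most genes of S phase and mitosis were brighter there too. So were Cdk2 and Ccnd3 by the probe sets that stood for them, while Ccnd1, Ccnd2, Cdk4 and Cdk6 were dimmer. Red cell and platelet markers were higher in the same array as well, and the part of each in the differences of the G1 genes was not tested. Direction of the 10 genes was the same in both other scalings of the arrays. After quantile normalization, which moved the median of all genes from -0.26 to 0.01, 6 genes again lay above that median and 4 below it, and Ccnd1 was at -0.19.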

How the data were processed

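RNA of 2 sorted spleen samples was measured on 1 Affymetrix array each. Per the labels' protocols, the RNA was amplified and biotinylated by in vitro transcription from its 3′ end. The authors' deposited table holds a linear intensity for each of 45037 probe sets. Per the submitters' processing notes, Partek 6.6 and GCRMA were used, in roles that are not given in the sources used here; trimmed means were 494 and 497, and saturation is unknown.

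Symbols came from GEO's platform annotation (34945 probe sets with 1 symbol, 932 with several, 9160 with none); RefSeq held 34741 by Entrez identifier and changed 0. Intensities were converted to log2 without further normalization. With 1 array per group no test was possible and the arrays' number limits the precision. The tools were pandas 2.3.3 and numpy 2.4.6 under Python 3.11.15, with scipy 1.17.1 and, for plots, matplotlib 3.10.9; the computation was tested on simulated data.

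The 10 genes, the lists and the thresholds were chosen with earlier results of these data known, and the E-box and GC box after the promoters were seen. Named beside the 10 genes are, of each other list, the 2 genes above the level with the largest differences and those 4-fold against the list's median; Ccna1, Skp2, Cdk12, Cdk16 and the remaining CDK inhibitors were named after their values were seen. Alternatives were an average over all probe sets of a gene and the use of probe sets without an _a_at, _s_at or _x_at suffix. Further alternatives were 3 other detection settings, 2 other scalings, a pseudocount of 16 and a 2-fold threshold.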

Additional observations from a re-analysis of the deposited data

How the results depend on the processing

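Of the 10 G1 genes, 8 kept their direction under every alternative that gave a value. Averaged over all probe sets of a gene, Ccnd3 was at -0.03 and Cdk2 at -0.40, since each then includes a probe set dimmer in the CD45-negative array, and that of Cdk2 passed the level in neither array. The median of the G1 genes was then -0.21, and 2 of them were at least 4-fold lower, Ccnd2 and Cdk6. Without suffixed probe sets 2 were at least 4-fold lower, Ccnd2 and Cdk4, and Cdk2 had no value. The count of 3 higher was the same under all alternatives except the 2-fold threshold, at which 6 were higher and 3 lower, among 1976 and 3922 of all genes. With no detection level the counts over all genes were 2885 and 3294, so that higher genes made up 46.7% of the differences past 4-fold in place of 33.1%; quantile normalization gave 42.2%. Of 144 counts of the other lists under the alternatives, 19 differed from the count as reported, 12 of them by over 1.5 times. Of 72 medians, 1 differed by more than the pooled spread of probe sets (0.83) and 2 changed sign, that of cyclin D turnover to 0.03 with probe sets averaged and that of the list outside the G1 switch to -0.08 without suffixed probe sets. Leaving out a replicate was not possible. No paired analysis was possible because each group has 1 array.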

Other observations

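Cyclins and CDKs that work outside the G1 switch, in transcription, splicing and the cytoplasm, lay on both sides of 0. Of 24 genes, 22 were above the level in at least 1 array, 3 were at least 4-fold higher and 2 lower, and the median was 0.06. Past 4-fold in either direction were 22.7% of the 22, against 25.1% of all genes above the level. Ccndbp1, which encodes a protein that binds cyclin D, was at 19942 against 2913, or 6.85-fold higher by its only probe set. The kinases Cdk12 and Cdk16, named after their values were seen, lay on the threshold at 4.03-fold and were at 0.76 and 0.53 on the log2 scale when probe sets were averaged. Cdk5, a kinase best known from neurons, was at least 5.24-fold lower (7.5 against 666.9), and Cdk10 at least 4.19-fold lower (106.5 against 533.2). After quantile normalization neither was past 4-fold, with Cdk10 at -1.80 and Cdk5 represented by a probe set that passed the level in neither array; with probe sets averaged Cdk5 was at -0.43, and with the higher detection level, a 99th percentile, Cdk10 was at -1.73.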
